A study of Mus musculus with 12 samples.

Results

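The genes that encode the alpha subunits of the hypoxia-inducible factors (HIFs), together with a set of non-glycolytic genes that these factors induce, were examined in C2C12 myotubes. The set held 10 genes of the 55487 Ensembl genes listed in the deposited counts: Hif1a, Epas1, Egln1, Egln3, Bnip3, Bnip3l, Ankrd37, Ndrg1, Vegfa and Adm. Each was chosen by its symbol in a GENCODE annotation of genome build GRCm38, and each symbol matched 1 protein-coding gene. C2C12 cells are immortal mouse myoblasts which, deprived of growth serum, join into myotubes, the multinucleated precursors of muscle fibers. After 5 days of differentiation in 2% horse serum, the myotubes of both groups received 24 h of fresh medium that held 4% horse serum or 4% STEM, a product free of cells that human embryonic stem cells secrete while they partially differentiate. RNA sequencing gave 6 libraries per group, of which 1 to 6 are horse serum and 7 to 12 STEM. STEM replaced the horse serum, so the addition of STEM and the removal of horse serum cannot be told apart. The sources used here give no oxygen level for either group, and they describe no hypoxic treatment.

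HIF alpha subunits are made continuously, and in the presence of oxygen they are hydroxylated on prolines by the EGLN enzymes, bound by the VHL ubiquitin ligase and degraded. When oxygen is short they persist, pair with ARNT and activate genes that hold the core motif ACGTG or GCGTG. HIF activity is therefore set largely at the protein level, which RNA counts do not measure, and in skeletal muscle its targets serve glucose use, mitophagy and the supply of blood vessels.

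The upstream sequences of these genes are shown because this motif is what the HIF targets among them are known for. The table of RefSeq windows used here (GRCm38.p6) gave 8 windows of 250 bases upstream of a start site for 7 of the 10 genes. Windows of Epas1, Bnip3l and Ndrg1 were not analysed here. Both motifs were searched on both strands, and capitals mark the letters of each match, where CACGT and CACGC are the motifs read on the other strand. The Bnip3 window (chr7:138909507-138909756, minus strand) held 5 matches, of which 2 were the opposite strands of 1 CACGTG. The Ankrd37 window (chr8:45999851-46000100, minus strand) held 4, of which 2 overlapped. The Egln3 window (chr12:54203875-54204124, minus strand) held 1, the Adm window (chr7:110627407-110627656, plus strand) held 2, and the window before the gene start of Vegfa (chr17:46032378-46032627, minus strand) held 0. Vegfa had a second window (chr17:46025164-46025413), of which 218 bases lay in its exons, and this one, which is not printed, held 1 ACGTG and 1 GCGTG match. The last 13 bases of the Bnip3 window and 17 bases of the Ankrd37 window lay in annotated exons of these genes. The Hif1a and Egln1 windows, also not printed, held 3 and 2 matches. Of the 3 in the Hif1a window, 2 were the opposite strands of 1 CACGTG. Of the Egln1 window, 70 bases lay in exons of Egln1.
Bnip3: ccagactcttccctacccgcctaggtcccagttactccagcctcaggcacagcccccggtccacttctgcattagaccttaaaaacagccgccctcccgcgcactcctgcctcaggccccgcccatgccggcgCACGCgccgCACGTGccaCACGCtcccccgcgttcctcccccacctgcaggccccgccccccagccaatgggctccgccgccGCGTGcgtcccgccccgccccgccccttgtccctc
Ankrd37: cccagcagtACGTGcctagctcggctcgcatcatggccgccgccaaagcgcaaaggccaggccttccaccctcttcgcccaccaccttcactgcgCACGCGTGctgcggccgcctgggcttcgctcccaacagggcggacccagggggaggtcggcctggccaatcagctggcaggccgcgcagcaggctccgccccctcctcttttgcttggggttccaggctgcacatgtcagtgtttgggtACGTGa
Egln3: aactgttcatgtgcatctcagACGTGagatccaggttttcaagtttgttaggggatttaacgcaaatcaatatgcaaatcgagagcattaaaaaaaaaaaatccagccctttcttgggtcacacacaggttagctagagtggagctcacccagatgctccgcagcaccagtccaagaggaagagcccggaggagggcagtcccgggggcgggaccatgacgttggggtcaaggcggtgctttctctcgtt
Adm: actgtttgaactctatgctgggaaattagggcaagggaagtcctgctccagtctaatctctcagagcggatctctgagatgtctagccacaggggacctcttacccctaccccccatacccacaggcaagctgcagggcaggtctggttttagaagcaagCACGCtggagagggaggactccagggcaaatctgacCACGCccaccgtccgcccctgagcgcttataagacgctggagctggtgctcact
Vegfa: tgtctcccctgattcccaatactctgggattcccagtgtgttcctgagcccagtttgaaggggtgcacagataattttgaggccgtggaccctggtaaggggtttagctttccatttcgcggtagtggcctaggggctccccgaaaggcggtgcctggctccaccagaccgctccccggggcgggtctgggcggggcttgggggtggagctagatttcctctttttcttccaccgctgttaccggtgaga

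At least 1 match was found in 7 of the 8 windows, beside 38.6% of the 32851 RefSeq windows of this length. ACGTG was in 6 of them (16.6% of all windows) and GCGTG in 5 (28.2%). Of the 8 windows, 3 held at least 3 matches, as did 6.58% of all windows, and the Bnip3 window, with 5, was among 1.01%. A match of 5 letters is a description of the sequence and was not tested as a binding site. The windows with a match include that of Hif1a, an alpha subunit gene, and the second of Vegfa, which is mostly exon. The Hif1a window (chr12:73907617-73907866) lay inside the annotated gene, downstream of its start. The 8 windows held 50.8% to 86% G and C. Both motifs hold the letters CG, and the comparison with all windows was not matched for base content.

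Read counts summed to between 13285472 and 24536264 per library, and levels are given as CPM (counts per 1000000 of the library total after TMM scaling). Fold changes are STEM over horse serum and come, like the p-values, from edgeR quasi-likelihood fits. P-values were adjusted over all genes tested (Benjamini-Hochberg), and genes at 0.05 or below are called differentially expressed. One library stood apart before any comparison: for 69.0% of the tested genes, horse serum library 6 lay outside the range set by the other 5 libraries of its group, while for the other 11 libraries this share within their own group was between 21.1% and 43.6%. Its summed level of 12 myotube markers was 7085 CPM, against 14051 to 15177 CPM in horse serum libraries 1 to 5 and 11396 to 14423 CPM with STEM. Each of the 12 markers was detected in the libraries and each was lower in library 6 than in the other 5. The comparison of each of the 10 genes is therefore given with and without library 6, except that Epas1 was not tested. Endothelial markers summed to at most 3.38 CPM in any library. Of the 7, Cdh5, Esam and Vwf exceeded 3 counts in a library (at most 6, 10 and 52 counts), while Pecam1 had at most 2 and Tie1, Emcn and Erg had 0. Of the 6 macrophage markers 2, of the 5 fibroblast markers 3 and of the 4 adipocyte markers 0 exceeded 3 counts in any library. Macrophage markers summed to at most 5.48 CPM. Fibroblast markers summed to 19.4 to 26.9 CPM in horse serum libraries 1 to 5, 31.4 CPM in library 6 and 29.2 to 34.1 CPM with STEM. The fibroblast sums join opposite differences. Pdgfra had a mean of 11.6 CPM in libraries 1 to 5, 24.8 CPM in library 6 and a mean of 18.4 CPM with STEM. In the same order Dpt was at 3.25, 1.74 and 6.36 CPM, and Dcn at 8.62, 4.71 and 7.26 CPM.

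Without library 6, the mRNA of 8 of the 9 genes that could be tested was lower with STEM, from 1.24-fold for Vegfa to 2.64-fold for Ndrg1, and Hif1a was the exception. With all 12 libraries, 1 of the 9, Ndrg1, was differentially expressed. The share of all tested genes called was 36.4% with all 12 libraries (14175 genes) and 50.8% without library 6 (14267 genes), and 17.4% and 24.5% were called lower. The median log2 fold change of the 9 genes was -0.39 with all 12 libraries and -0.54 without library 6, beside 0.01 for all tested genes both times. With all 12 libraries the groups overlapped for each of the 9, while 17.2% of all tested genes had groups that did not overlap, 8.52% with STEM below horse serum. Once library 6 was left out, 7 of the 9 had every STEM library below every horse serum library in CPM. Of all tested genes, 16.5% had this pattern (33.3% in either direction). DESeq2 called 2 of the 9 with all libraries and limma-voom 1, beside 37.7% and 34.7% of all tested genes, and without library 6 each called 8, beside 49.8% and 50.3%. The tenth gene, Epas1, was under the filter on low counts in both fits. No label states that the libraries came from separate cultures, so p-values measure the spread between these libraries, which may be technical.

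**Figure D1:**
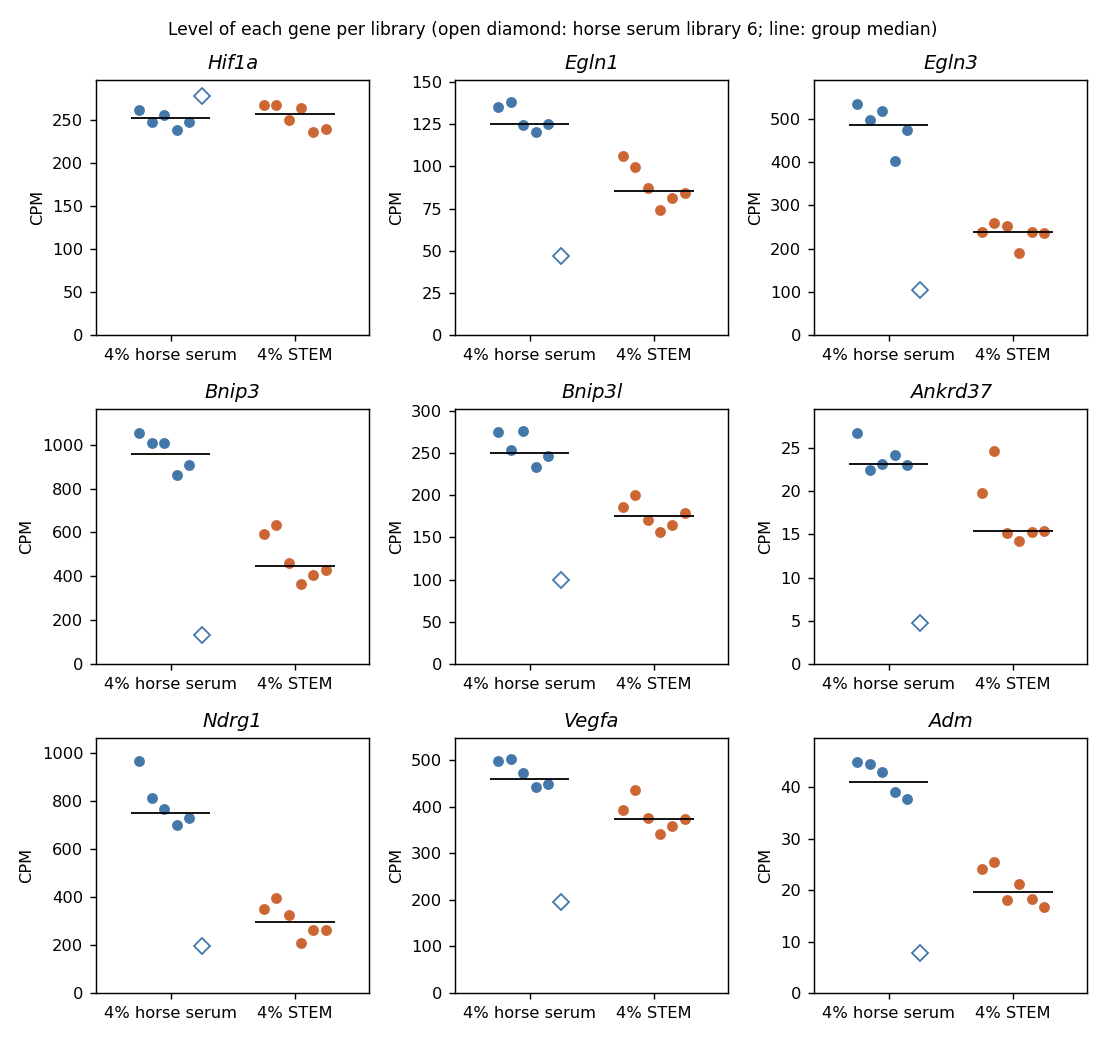
Level of each tested gene in CPM (vertical axis, from 0) in every library of the 4% horse serum and 4% STEM groups; each point is a library, the open diamond is horse serum library 6 and the line is the median of 6. Library 6 is the lowest of all 12 libraries in 8 panels and the highest for Hif1a, and the other 5 horse serum libraries lie above the STEM libraries for Egln1, Egln3, Bnip3, Bnip3l, Ndrg1, Vegfa and Adm.

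Of the HIF alpha genes, Hif1a differed between the groups by less than the spread between libraries and Epas1 was near the limit of detection. Hif1a (ENSMUSG00000021109, chr12:73901375-73947530, plus strand), the broadly expressed alpha subunit, was between 238 and 277 CPM with horse serum (median 251) and between 236 and 267 CPM with STEM (median 257). The groups overlapped throughout, and library 6 held the highest value of all 12. The log2 fold change was -0.0040 (SE 0.049, edgeR adjusted p = 0.960) with a 95% confidence interval of -0.11 to 0.10, and without library 6 it was 0.023 (adjusted p = 0.681, interval -0.066 to 0.11). Epas1 (ENSMUSG00000024140, chr17:86753700-86833410, plus strand) encodes HIF-2alpha, the subunit best known from endothelial cells. It had 3 to 16 counts per horse serum library (median 8) and 3 to 11 counts per STEM library (median 5.5). At this depth a difference between the groups was not detectable: in a fit without the filter its log2 fold change was -0.46 (SE 0.41, adjusted p = 0.459).

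Both oxygen-sensing hydroxylases were lower with STEM than in horse serum libraries 1 to 5, Egln3 by more than Egln1. Egln1 (ENSMUSG00000031987, chr8:124908587-124949324, minus strand), also known as PHD2, is the main prolyl hydroxylase of HIF-1alpha and itself a HIF target. Its level was 135, 138, 125, 120 and 125 CPM in horse serum libraries 1 to 5 and 46.9 CPM in library 6, and it ranged from 73.9 to 106 CPM with STEM (median 85.6). Every STEM library lay between library 6 and the other 5. The log2 fold change was -0.37 (SE 0.22, edgeR adjusted p = 0.206) with all libraries and -0.53 (SE 0.083, adjusted p = 0.000155) without library 6, or 1.45-fold lower.

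Egln3 (ENSMUSG00000035105, chr12:54178981-54203860, minus strand), or PHD3, is the hydroxylase most strongly induced by hypoxia. It stood at 536, 499, 519, 403 and 474 CPM in horse serum libraries 1 to 5, at 105 CPM in library 6, and at 190 to 260 CPM with STEM (median 238). The STEM libraries again lay above library 6 and below the other 5. Its log2 fold change of -0.84 (SE 0.31) missed the threshold with all libraries (edgeR adjusted p = 0.0544), and without library 6 Egln3 was 2.06-fold lower with STEM (log2 fold change -1.04, SE 0.083, adjusted p = 3.07e-07).

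The log2 ratio of Egln3 to Egln1 counts within a library does not depend on how libraries are scaled. It was 1.91 ± 0.12 in horse serum libraries 1 to 5 (SD, n = 5) and 1.41 ± 0.15 with STEM (SD, n = 6), and 1.16 in library 6. Library 6 thus lay below the STEM libraries, of which the lowest was also at 1.16. Without library 6 the difference was -0.50 (2-sided exact permutation p = 0.00433, which is the lowest that 6 against 5 libraries allow, and 0.00649 adjusted over 3 ratios). With all libraries it was -0.37 (exact permutation p = 0.0368, adjusted p = 0.110).

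Bnip3 and Bnip3l, which encode related mitochondrial outer membrane proteins that recruit the autophagy machinery, were both lower with STEM than in horse serum libraries 1 to 5. Bnip3 (ENSMUSG00000078566, chr7:138890836-138909519, minus strand) had the largest spread in the horse serum group. It was at 1052, 1007, 1007, 862 and 906 CPM in libraries 1 to 5 and at 131 CPM in library 6, and between 364 and 634 CPM with STEM (median 447). STEM libraries 7 and 8, at 594 and 634 CPM, were the highest of their group, still below the lowest of horse serum libraries 1 to 5. With all libraries the log2 fold change was -0.78 (SE 0.40, edgeR adjusted p = 0.150), and without library 6 Bnip3 was 2.01-fold lower (-1.0, SE 0.15, adjusted p = 0.000246).

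Bnip3l (ENSMUSG00000022051, chr14:66985239-67008877, minus strand), or NIX, was between 233 and 277 CPM in horse serum libraries 1 to 5, at 99.1 CPM in library 6 and between 156 and 200 CPM with STEM (median 175). The pattern was that of Bnip3 with a smaller spread. Its log2 fold change was -0.39 (SE 0.20, edgeR adjusted p = 0.153) with all libraries and -0.54 (SE 0.061, adjusted p = 2.11e-06) without library 6. A pseudogene, Bnip3l-ps, is annotated, and the counting rules for reads shared with it are not given in the sources used here, so part of the Bnip3l count is uncertain.

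The log2 ratio of Bnip3 to Bnip3l counts was 1.91 ± 0.052 in horse serum libraries 1 to 5 (SD, n = 5), 1.43 ± 0.20 with STEM (SD, n = 6) and 0.40 in library 6. STEM libraries 7 and 8 were at 1.68 and 1.66, and the other 4 STEM libraries lay between 1.22 and 1.44. Bnip3 was thus lower by more than its paralog in every STEM library and, most of all, in library 6. Without library 6 the difference was -0.48 (2-sided exact permutation p = 0.00433, adjusted p = 0.00649), and with it -0.23 (exact permutation p = 0.444, adjusted p = 0.50). The third ratio, Epas1 to Hif1a, rested on the few Epas1 counts and differed by -0.33 with all libraries (exact permutation p = 0.50, adjusted p = 0.50) and by -0.63 without library 6 (exact permutation p = 0.190, adjusted p = 0.190).

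**Figure D2:**
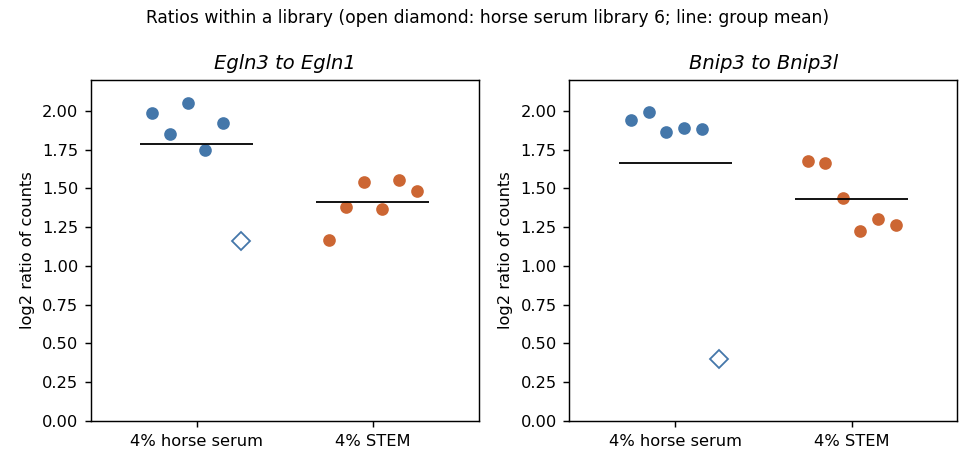
Log2 ratio of counts within each library (vertical axis) for Egln3 to Egln1 (left) and Bnip3 to Bnip3l (right) in the 4% horse serum and 4% STEM groups; points are libraries, the open diamond is horse serum library 6 and the line is the mean of 6. Horse serum libraries 1 to 5 lie above every STEM library in both panels, and library 6 lies at 1.16 and 0.40, below the STEM libraries.

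Ndrg1 was the gene of the set with the largest difference and the 1 that was differentially expressed with and without library 6. Ndrg1 (ENSMUSG00000005125, chr15:66929318-66969640, minus strand) encodes a stress-responsive cytoplasmic protein whose mRNA rises in hypoxia and with differentiation. It was at 966, 814, 768, 701 and 730 CPM in horse serum libraries 1 to 5 and at 196 CPM in library 6, and between 207 and 397 CPM with STEM (median 294). In CPM, library 6 was just below the lowest STEM library and the other 5 were far above the highest. Ndrg1 was 2.31-fold lower with STEM with all libraries (log2 fold change -1.21, SE 0.32, edgeR adjusted p = 0.0116) and 2.64-fold lower without library 6 (-1.40, SE 0.16, adjusted p = 6.13e-05).

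Ankrd37, a small ankyrin repeat protein gene and a direct HIF-1 target, was low, and it was the 1 of the 8 genes called without library 6 whose groups overlapped. Ankrd37 (ENSMUSG00000050914, chr8:45996902-46005707, minus strand) was between 22.5 and 26.8 CPM in horse serum libraries 1 to 5, at 4.71 CPM in library 6, and between 14.2 and 24.6 CPM with STEM (median 15.4). STEM library 8, at 24.6 CPM, was within the range of horse serum libraries 1 to 5, and the other 5 STEM libraries were below it. Its log2 fold change was -0.24 (SE 0.32, edgeR adjusted p = 0.596) with all libraries and -0.45 (SE 0.13, adjusted p = 0.0108) without library 6. Ankrd37 overlaps Ufsp2 on the opposite strand, and whether the counting used the strand is not given in the sources used here, so its counts may hold reads of Ufsp2.

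The secreted factors of the set, Vegfa and Adm, were both lower with STEM once library 6 was left out, Adm by more. Vegfa (ENSMUSG00000023951, chr17:46016993-46032369, minus strand), the main growth factor for blood vessels, was between 441 and 502 CPM in horse serum libraries 1 to 5, at 196 CPM in library 6 and between 340 and 437 CPM with STEM (median 374). The gap between the groups was narrow in CPM. STEM library 8 held 437 CPM and the lowest of horse serum libraries 1 to 5 held 441 CPM. With the scaling by gene length given below, the groups overlapped. With all libraries Vegfa had a log2 fold change of -0.17 (SE 0.18, edgeR adjusted p = 0.506), and it was -0.32 (SE 0.056, adjusted p = 0.000116) without library 6.

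Adm (ENSMUSG00000030790, chr7:110627661-110629820, plus strand) encodes adrenomedullin, a vasodilator peptide. It was at 45.0, 44.5, 43.0, 39.1 and 37.7 CPM in horse serum libraries 1 to 5 and at 7.74 CPM in library 6, and between 16.7 and 25.4 CPM with STEM (median 19.7). The groups were well apart without library 6, which itself held less than any STEM library. Adm had a log2 fold change of -0.80 (SE 0.33, edgeR adjusted p = 0.0827) with all libraries and -1.01 (SE 0.10, adjusted p = 1.23e-06) without library 6, or 2.02-fold lower.

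**Figure D3:**
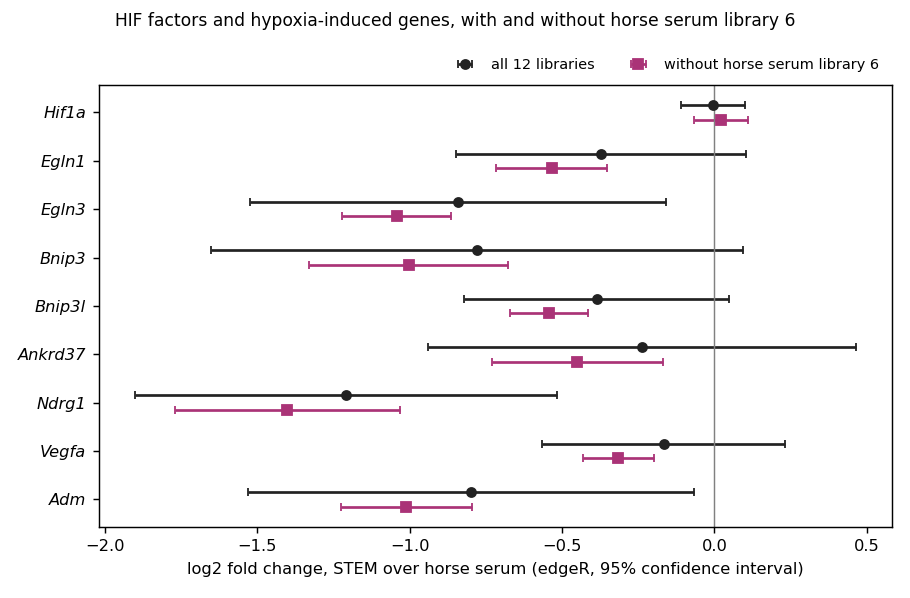
Log2 fold change of the 9 tested genes, STEM over horse serum (horizontal axis), from edgeR with all 12 libraries (circles) and without horse serum library 6 (squares); bars are 95% confidence intervals. Without library 6 the intervals of 8 genes lie below 0, from Vegfa at -0.32 to Ndrg1 at -1.40, and that of Hif1a spans 0.

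Scaled for gene length, the 10 genes covered a wide range of levels. In TPM, counts per base of exon scaled to the same sum in each library, Bnip3 was the highest in horse serum libraries 1 to 5, at 888 ± 71.4 TPM (SD, n = 5), followed by Egln3 at 380 ± 41.4 TPM, Ndrg1 at 251 ± 28.5 TPM and Vegfa at 229 ± 13.4 TPM. Ndrg1 and Vegfa were within 1 SD of each other. The remaining order was Bnip3l (138 TPM), Hif1a (88.1 TPM), Egln1 (74.5 TPM), Adm (53.8 TPM), Ankrd37 (32.3 TPM) and Epas1 (0.235 TPM). With STEM, Bnip3 was still the highest at 465 ± 109 TPM (SD, n = 6), while Egln3 (193 ± 20.3 TPM) and Vegfa (193 ± 17.9 TPM) stood at the same level, and so did Ndrg1 (99.6 ± 23.4 TPM), Bnip3l (99.6 ± 9.42 TPM) and Hif1a (93.9 ± 6.19 TPM). In TPM the groups overlapped for Vegfa also without library 6. STEM library 8 held 221 TPM of Vegfa and horse serum library 4 held 210 TPM.

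In CPM, horse serum library 6 had the lowest level of all 12 libraries for each of the 8 hypoxia-induced genes. In TPM this did not hold for Ndrg1, with 68.1 TPM in STEM library 10 and 73.3 TPM in library 6. Library 6 was below the other 5 horse serum libraries for 33.1% of all tested genes. Against the mean of the other 5 horse serum libraries it was 7.40-fold lower for Bnip3, 5.41-fold for Adm, 5.08-fold for Ankrd37, 4.64-fold for Egln3, 4.05-fold for Ndrg1, 2.74-fold for Egln1, 2.59-fold for Bnip3l and 2.41-fold for Vegfa. Hif1a was 1.11-fold higher there. Library 6 is a single library, so this difference has no replicate and no test. The sum of its 12 myotube markers was 2.06-fold below the mean of the other 5, and the 12 ranged from 1.08-fold lower for Myog and 1.59-fold for Acta1, the most abundant, to 7.52-fold for Actn2 and 8.59-fold for Myh8. Of the 12, 6 were lower by more than Vegfa and 2 by more than Bnip3. Its summed proliferation markers, 948 CPM, were above the 564 to 860 CPM of the other 5. What part these markers have in the levels of library 6 was not tested, and fewer myotubes and less RNA of these genes per myotube cannot be told apart in bulk RNA.

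Within the STEM group the spread was also shared. Libraries 7 and 8 were the 2 highest STEM libraries for 7 of the 8 hypoxia-induced genes and also for Hif1a. Egln3 was the exception, with libraries 8 and 9. The share of all tested genes with libraries 7 and 8 highest is not given here, so the pattern may not be particular to the set. The myotube marker sum was also highest in STEM library 7 (14423 CPM), followed by library 8. Without library 6, 8 of the 12 myotube markers were called lower and 1 higher with STEM. Of the 5 proliferation markers 4 were called lower, with sums of 422 to 515 CPM. The shares called were 75% and 80%, beside 50.8% of all tested genes (24.5% called lower). Myoblast and reserve cell markers summed to 714 to 753 CPM with STEM and 684 to 744 CPM in horse serum libraries 1 to 5. These sums join opposite differences. Without library 6, 3 of these 5 markers (60%) were called. Sdc4 (log2 fold change -1.0) and Myf5 (-0.45) were lower with STEM and Cdh15 (0.55) was higher. The part of myotube, myoblast, proliferation or fibroblast markers in the differences between the groups was not tested.

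**Figure D4:**
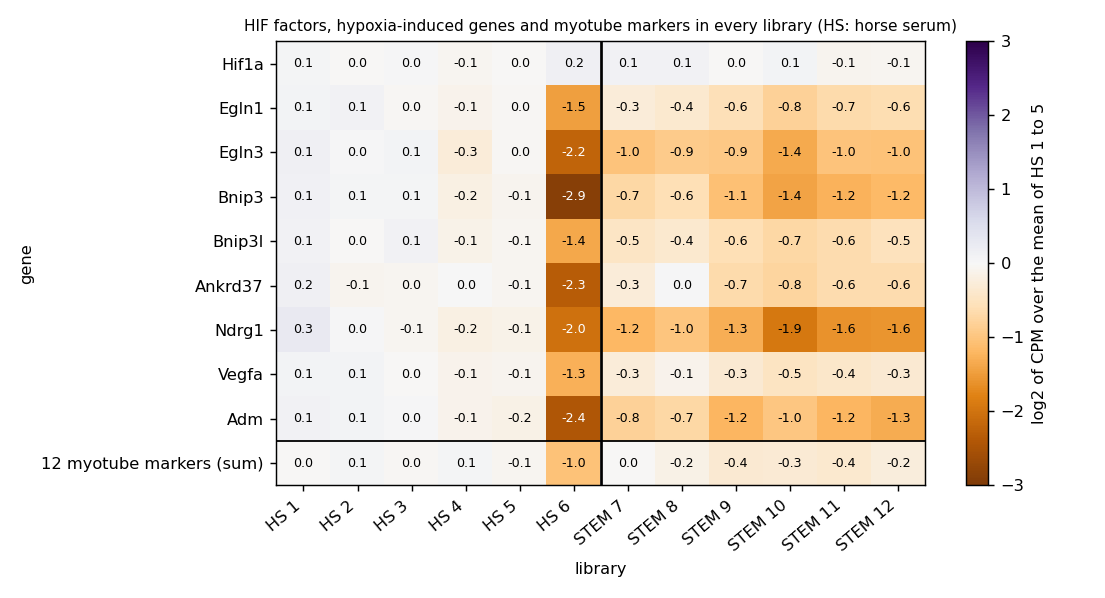
Log2 of CPM over the mean of horse serum libraries 1 to 5 (colour and printed values) for the 9 tested genes and the sum of 12 myotube markers (rows) in every library (columns; HS, horse serum). The column of HS 6 is the darkest for the 8 hypoxia-induced genes, which are negative in the STEM columns except Ankrd37 in STEM 8, and the row of Hif1a stays near 0.

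Over the 11 libraries without library 6, and after the group means were subtracted, the log2 CPM values of the 8 hypoxia-induced genes correlated positively in all 28 pairs (Pearson's r from 0.23 to 0.94, median 0.78). Hif1a correlated with each of the 8 at 0.22 to 0.86 (median 0.51). These values are descriptions, since the points share libraries and their depth and composition. By the same measure, the tested gene most like Bnip3 was Pdk1 (r = 0.99), the one most like Adm was Itgb1 (0.97), and the one most like Ndrg1 was Vwa1 (0.97). The closest genes were Ccng2 for Vegfa (0.96), Fermt2 for Egln1 (0.96), Itpk1 for Ankrd37 (0.96), Gm28730 for Hif1a (0.96), Ocrl for Bnip3l (0.95) and Aplp1 for Egln3 (0.93). Each of these genes was picked as the highest of all tested genes over 11 libraries. Its r is therefore raised by the selection and was not tested.

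The genes around the HIF pathway did not share one direction. Of 28 genes that regulate or partner HIF, 26 were tested. With all libraries 7 were called (5 higher, 2 lower), or 26.9%, beside 36.4% of all tested genes. Without library 6, 11 were called (7 higher, 4 lower), or 42.3%, beside 50.8%. Their median log2 fold change was 0.07 both times. Arnt2, a partner of HIF alpha subunits that is best known from neurons, was low and higher with STEM (4.85 CPM in horse serum libraries 1 to 5 and 12.2 CPM with STEM, log2 fold change 1.26 with all libraries, SE 0.12, edgeR adjusted p = 1.89e-06). Cited2, a competitor of HIF-1alpha for the coactivator p300 and itself induced by HIF, was lower (31.1 and 18.9 CPM, log2 fold change -0.68, SE 0.082, adjusted p = 2.16e-05). Hsp90aa1, a chaperone of HIF-1alpha, was slightly higher (log2 fold change 0.21, SE 0.052, adjusted p = 0.00463). These 3 stayed past the threshold without library 6, at 1.33, -0.72 and 0.23. Chosen after their values were seen, Arnt (0.03), Vhl (0.09) and Egln2 (0.06) were not called with all libraries. They encode the ubiquitous partner, the ubiquitin ligase subunit and the third hydroxylase. Without library 6 they were at 0.03, 0.07 and 0.08 and again not called. Other genes of the list, chosen in the same way, were called only without library 6: Rbx1 (-0.15), Hif1an (-0.17) and Crebbp (0.47). Hif3a and Cited4 had at most 2 counts in any library and were not tested.

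Among 17 other VEGF and adrenomedullin ligands and receptors, 11 were tested. With all libraries 7 were called (2 higher, 5 lower), or 63.6%, beside 36.4% of all tested genes. Without library 6, 8 were called (3 higher, 5 lower), or 72.7%, beside 50.8%. Their medians were -0.13 and -0.08. Ackr3, a scavenging receptor that binds adrenomedullin, was lower with STEM (32.1 CPM in horse serum libraries 1 to 5 and 16.2 CPM with STEM, log2 fold change -0.96, SE 0.065, edgeR adjusted p = 1.45e-07), as were the receptor subunit Ramp1 (-0.72, SE 0.13, adjusted p = 0.000634) and the VEGF co-receptor Nrp2 (-0.48, SE 0.11, adjusted p = 0.00297). Vegfc, the lymphatic growth factor, was higher with all libraries (0.51, adjusted p = 0.0157) and without library 6 (0.69, SE 0.11, adjusted p = 5.03e-05). Ackr3, Ramp1 and Nrp2 were also called without library 6, at -0.99, -0.74 and -0.35. Kdr, the main signalling receptor of VEGFA, had 0 counts in all 12 libraries, and Flt1, Flt4, Calca, Calcb and Ramp3 were also under the filter.

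Of 22 genes of mitophagy and the BCL2 partners of BNIP3, 21 were tested. With all libraries 6 were called (4 higher, 2 lower), or 28.6%, beside 36.4% of all tested genes. Without library 6, 11 were called (6 higher, 5 lower), or 52.4%, beside 50.8%. Their medians were 0.02 and 0.01. Bcl2, the survival protein that BNIP3 binds, was lower (log2 fold change -0.65, SE 0.11, edgeR adjusted p = 0.000384), as was the autophagosome protein gene Map1lc3b (-0.22, SE 0.047, adjusted p = 0.00213), while the mitochondrial inner membrane protein gene Phb2 was higher (0.22, SE 0.050, adjusted p = 0.00277). These 3 were also called without library 6, at -0.66, -0.25 and 0.25. The mitochondrial phosphatase gene Pgam5 was higher in both fits (0.27, adjusted p = 0.00405, and without library 6 0.32, adjusted p = 2.90e-05). Map1lc3a was called lower only without library 6 (-0.26, adjusted p = 4.70e-05), and its log2 fold change with all libraries was -0.14 (adjusted p = 0.475). Calcoco2 had at most 3 counts and was not tested. Of the 3 other NDRG genes, Ndrg3 was lower (log2 fold change -0.36, SE 0.061, adjusted p = 0.000390) and Ndrg4 higher (0.18, SE 0.056, adjusted p = 0.0216) with all libraries, and without library 6 they were at -0.39 and 0.21, both called. Ndrg2 was called lower only once library 6 was left out (-0.83, SE 0.12, adjusted p = 0.000302), against -0.64 (adjusted p = 0.124) with all libraries.

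The wider lists of hypoxia-induced genes were lower in library 6 as well. Of 55 other non-glycolytic hypoxia-induced genes 51 were tested. With all libraries 22 were called (7 higher, 15 lower), or 43.1%, beside 36.4% of all tested genes. Without library 6, 40 of these genes were called (7 higher, 33 lower), or 78.4%, beside 50.8%. Their median log2 fold change was -0.15 and -0.23, and 40 of the 51 (78.4%) were below every other horse serum library in library 6, beside the 33.1% of all tested genes. Pim1, a survival kinase gene, was lower (-0.60, SE 0.062, edgeR adjusted p = 4.67e-06), as was Wsb1, a ubiquitin ligase subunit gene (-0.42, SE 0.055, adjusted p = 4.13e-05), while Bhlhe41, a transcriptional repressor gene, was higher (0.42, SE 0.040, adjusted p = 2.58e-06). All 3 were called without library 6 as well, at -0.62, -0.45 and 0.41. The largest differences of the list, chosen after their values were seen, ran both ways: Car9, a carbonic anhydrase gene and a much used hypoxia marker, was at 287 CPM in horse serum libraries 1 to 5, 20.8 CPM in library 6 and 60.3 CPM with STEM (log2 fold change -2.0, adjusted p = 0.0139, and without library 6 -2.24, adjusted p = 8.01e-05), and Stc1, a secreted glycoprotein gene, was at 2.03, 0.769 and 7.26 CPM (2.01, adjusted p = 0.000120, and 1.83, adjusted p = 5.16e-05). Epo, Cox4i2, Mt3 and Ndufa4l2 were under the filter.

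Most of the 25 glycolytic HIF targets serve sugar uptake and its breakdown, and the list also holds the glycogen genes Gys1 and Gbe1. All 25 were tested for expression. Their own upstream windows were not examined for the HIF motif here. With all libraries 2 were called, both lower (8%, beside 36.4% of all tested genes). Without library 6, 18 of these targets were called, 16 lower and 2 higher (72%, beside 50.8%). Their median log2 fold change was -0.08 with all libraries and -0.25 without library 6. For the 9 tested genes of the set, Hif1a included, it was -0.39 and -0.54. No test of this difference was made. In library 6, 24 of the 25 were below every other horse serum library, beside 33.1% of all tested genes, with a median log2 ratio of -1.26 to the other 5, against -2.01 for the 9 genes of the set and 0.02 for all tested genes. The glucose transporter gene Slc2a3 (log2 fold change -1.99, SE 0.28, edgeR adjusted p = 0.000146) and the aldolase gene Aldoc (-1.89, SE 0.42, adjusted p = 0.00461) were the 2 called with all libraries, and without library 6 they were at -2.17 and -2.11. Gpi1, for the isomerase that follows hexokinase, was called lower only without library 6 (-0.55, SE 0.062, adjusted p = 8.44e-07), against -0.41 (adjusted p = 0.107) with all libraries.

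**Figure D5:**
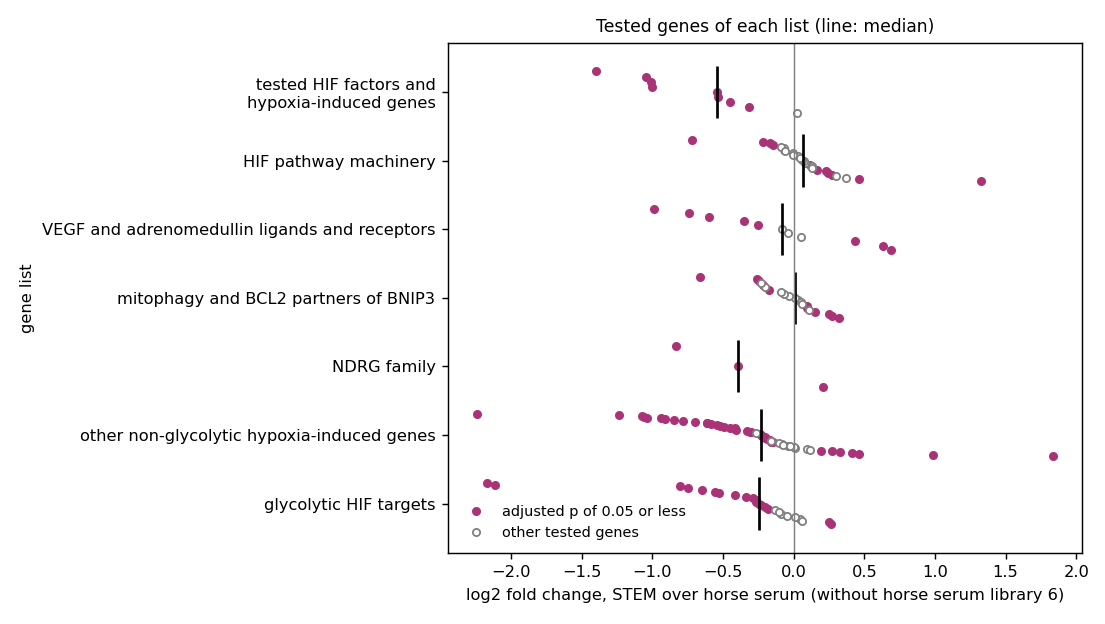
Log2 fold change, STEM over horse serum without horse serum library 6 (horizontal axis), of every tested gene of the set and of 6 related lists (rows); filled points passed an edgeR adjusted p of 0.05, open points did not, and vertical lines are medians. The median of the set lies at -0.54, that of the 3 other NDRG genes at -0.39, and those of the other hypoxia-induced and the glycolytic lists at -0.23 and -0.25. The medians of VEGF and adrenomedullin genes, HIF regulators and mitophagy genes lie at -0.08, 0.07 and 0.01.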

How the data were processed

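The authors isolated RNA from C2C12 myotubes, removed ribosomal RNA, prepared stranded libraries and deposited raw read counts per Ensembl gene for build GRCm38 (mm10), without normalization. The submitters' processing notes name STAR 2.7.3a, featureCounts 1.6.3 and DESeq2 1.26.0, and the annotation release and strand setting are not given in the sources used here. Libraries were grouped by their titles. Gene symbols and places came from GENCODE M21, which held 55227 of the 55487 listed genes, and genes outside it held 0.00268% of the counts. Within a group, every pair of libraries differed by more than sampling noise (chi-square per degree of freedom 3.54 or more), so none was counted as a repeat.

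Counts were tested with edgeR 4.0.16 in R 4.3.3 (TMM, filterByExpr, robust glmQLFit, glmQLFTest), first with all 12 libraries and then without horse serum library 6, and p-values were adjusted over all genes tested. DESeq2 1.42.0 and limma-voom (limma 3.58.1) were alternatives, beside 3 other scalings, 2 other filters, thinning, an adjusted p of 0.01 and leaving out each library. The scripts were tested on simulated counts. Log2 CPM used a prior count of 2. Ratios used a pseudocount of 1 and an exact permutation test, 2-sided, adjusted over 3 ratios. Intervals and the limit of 3 counts cover counting error and the spread between these libraries only.

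The 10 genes and the gene lists were chosen with earlier results of these data known. The rule for named genes took all 10, at most the 3 called genes with the lowest p-values of each list in each fit, list members under the filter, the markers, and for each gene the 1 with the most similar pattern. Promoter windows came from RefSeq (GRCm38.p6).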

Additional observations from a re-analysis of the deposited data

Results flagged for a closer look

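Dixon's test at the 95% level was applied to each gene and each ratio in each group of 6 libraries, 26 groups in all, of which chance flags about 1 in 20. It marked 11, and 10 of them were horse serum library 6. This library was the outlier of its group for Egln1 (46.9 CPM), Egln3 (105 CPM), Bnip3 (131 CPM), Bnip3l (99.1 CPM), Ankrd37 (4.71 CPM), Ndrg1 (196 CPM), Vegfa (196 CPM) and Adm (7.74 CPM), and for the log2 ratios of Egln3 to Egln1 (1.16) and of Bnip3 to Bnip3l (0.40). The remaining one was STEM library 10 for Egln3, at 190 CPM, the lowest of its group. The 10 values of library 6 belong to 1 library and are not independent of each other.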

How the results depend on the processing

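Leaving out each library in turn, the number of differentially expressed genes lay between 4459 and 7245 and the number of the set between 1 and 8, the upper value of each without horse serum library 6. In the other 11 fits it was 1 of the set. Without library 6, DESeq2 and limma-voom, both added after the data were seen, also called 8. With all 12 libraries, 2 of the set were called with total counts only, with at least 10 counts in every library and with DESeq2, where Egln3 passed (adjusted p = 0.0491, 0.0473 and 0.0239). At an adjusted p of 0.01, 0 of the set and 3266 genes were called by edgeR, and 3 of the set had an unadjusted p under 0.05. The log2 fold change of Hif1a changed sign with total counts only (0.014) and ranged from -0.029 to 0.023 over the left-out libraries, without a call. The other 8 tested genes stayed below 0 under every alternative run, although Ankrd37 came to -0.015 with limma-voom (adjusted p = 0.980). Leaving out 1 library gave differences of -0.50 to -0.32 for the log2 ratio of Egln3 to Egln1, -0.48 to -0.17 for Bnip3 to Bnip3l and -0.63 to -0.06 for Epas1 to Hif1a, and the first and second passed the threshold only without library 6. Among the related lists, leaving out a library other than horse serum library 6 gave 4 to 8 called HIF regulators (4 without horse serum library 3 or STEM library 11), 1 to 2 NDRG genes (1 without horse serum library 1, 2 or 3 or STEM library 7) and 13 to 20 other hypoxia-induced genes (13 without horse serum library 3, and 14 without horse serum library 2 or STEM library 9 or 11). With no filter on low counts 14 other hypoxia-induced genes were called, and of the glycolytic targets 4 with DESeq2 and 1 with limma-voom. The causes were not tested. Other scalings moved the median of all genes by at most 0.0202. No paired analysis was possible because the groups share no replicate number. Depth limited Epas1, at 3 to 16 counts per library.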
